A study of Caenorhabditis elegans with 4 samples.

Results

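Chromosome IV of Caenorhabditis elegans carries nearly all genes of the germline's Piwi-interacting RNAs, and the binding sites of the DNA repair protein MRE-11 on it were described inside and outside the broad domains in which those genes lie. A site was a peak of the whole-series list on IV that a peak of each of the 2 chromatin immunoprecipitation (ChIP) replicates overlapped by at least 1 bp. There were 753 such reproducible sites among 1966 whole-series peaks on IV (38.3%), against 36.1% of the 11473 peaks of all 6 nuclear chromosomes, and they made up 18.2% of the 4147 reproducible sites of the genome. By the position of their centres, 96 sites lay in the left piRNA domain (IV 4500000 to 7000000), 123 in the right piRNA domain (IV 13500000 to 17200000) and 534 in the rest of IV. Positions are in genome build WS220, and the limits of the domains are round numbers from what is known of the piRNA clusters.

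The material was whole hermaphrodites of strain fem-2(b245), genotype fem-2(b245)III, labelled as young adults that contain a germline and kept at 20 degrees Celsius, with 2 ChIP and 2 input libraries. Both ChIP libraries belong to this 1 group, so no genotypes, treatments or times were compared, and the input libraries were not analysed here. The fem-2 gene acts in male development and in sperm formation. Chromatin of whole ground worms comes from the soma and the germline together, and the growth protocol in the labels speaks of gravid adults. The antibody was an affinity-purified rabbit polyclonal against part of MRE-11.

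MRE-11 is the nuclease of the complex it forms with RAD-50, which processes the ends of DNA double-strand breaks, and in the worm germline it is also needed to make the meiotic breaks from which crossovers arise. The piRNAs of C. elegans, called 21U-RNAs, are short RNAs bound by the Piwi protein PRG-1, and they guide the silencing of foreign and transposon-like sequence in the germline. Most are transcribed from very small genes, each with its own promoter, which are scattered between and within protein-coding genes in broad clusters on IV. The factors SNPC-4 and PRDE-1 bind these clusters in germline nuclei. In the RefSeq gene table of assembly WBcel235, 14714 of 15363 piRNA genes (95.8%) are on IV. That assembly differs from the build of the peaks, so the edges of the domains were not checked against it and no site was tied to a gene.

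MRE-11 sites were sparser in the piRNA domains than elsewhere on IV. The right domain held 33.2 sites per Mb (95% Poisson interval 27.6 to 39.7) and the left domain 38.4 (31.1 to 46.9), against 47.3 (43.4 to 51.5) in the rest of the chromosome. The density of the right domain was 0.70 times that of the rest (95% exact interval of the ratio 0.57 to 0.86), and that of the left domain 0.81 times (0.65 to 1.01). For the left domain the interval thus included equal density. Between the domains the ratio of right to left was 0.87 (0.66 to 1.14), which did not tell them apart. Both domains together held 35.3 sites per Mb, which was 25.3% below the rest (ratio 0.75, 0.64 to 0.88). These intervals cover counting error only, and sites that neighbour each other are not independent. With 2 libraries of a single group there was no contrast between samples to test. The density, share at the highest score and median rank, width and gap of each domain are therefore given beside their values in either replicate. Most other measures are given for the reproducible sites alone.

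Both replicate lists had the order of the reproducible sites. In replicate 1 there were 29.5 peaks per Mb in the right domain, 37.6 in the left domain and 46.8 in the rest of IV. In replicate 2 the values were 45.4, 58.0 and 65.0 per Mb. The right domain was the sparser of the domains in either replicate, at 0.63 (0.51 to 0.77) and 0.70 (0.59 to 0.83) times the rest. Its ratio to the left domain was 0.78 in both, with intervals of 0.59 to 1.04 in replicate 1 and 0.62 to 0.98 in replicate 2. The left domain lay between it and the rest, at 0.80 (0.64 to 1.00) and 0.89 (0.74 to 1.07) times the rest. The share of bases under a peak followed the same order in replicate 2, with 4.63% of the right domain, 4.95% of the left and 5.90% of the rest. In replicate 1 it was 5.54%, 5.77% and 7.67%. Among the reproducible sites the order of the domains turned, with 3.52% of the right domain covered and 2.95% of the left, against 4.07% of the rest.

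The parts of the rest of IV were alike in density. The left end of the chromosome, 4.5 Mb long, held 209 sites at 46.4 per Mb (40.4 to 53.2), and the 6.5 Mb between the domains held 318 at 48.9 per Mb (43.7 to 54.6). The short right end beyond the right domain had 7 sites in 0.29 Mb (23.8 per Mb, 9.58 to 49.1), too few for a comparison. Set against the stretch between the domains alone, the left domain had a ratio of 0.78 (0.62 to 0.99) and the right domain 0.68 (0.55 to 0.84).

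Counts in 500 kb windows show the spread within each stretch. The 7 windows that lay wholly in the right domain held 10 to 21 sites each, 16.3 ± 4.07 (SD over windows). The 22 windows in the rest of IV held 13 to 40 sites, 24.0 ± 6.42. The 5 windows of the left domain held 13 to 29 sites, 19.2 ± 6.02, and the first of them, at the domain's left edge, held the most. The ranges of both domains thus overlapped that of the rest. In replicate 1 the right domain windows held 10 to 18 peaks and those of the rest 16 to 37, and in replicate 2 they held 14 to 28 and 19 to 51.

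**Figure D1:**
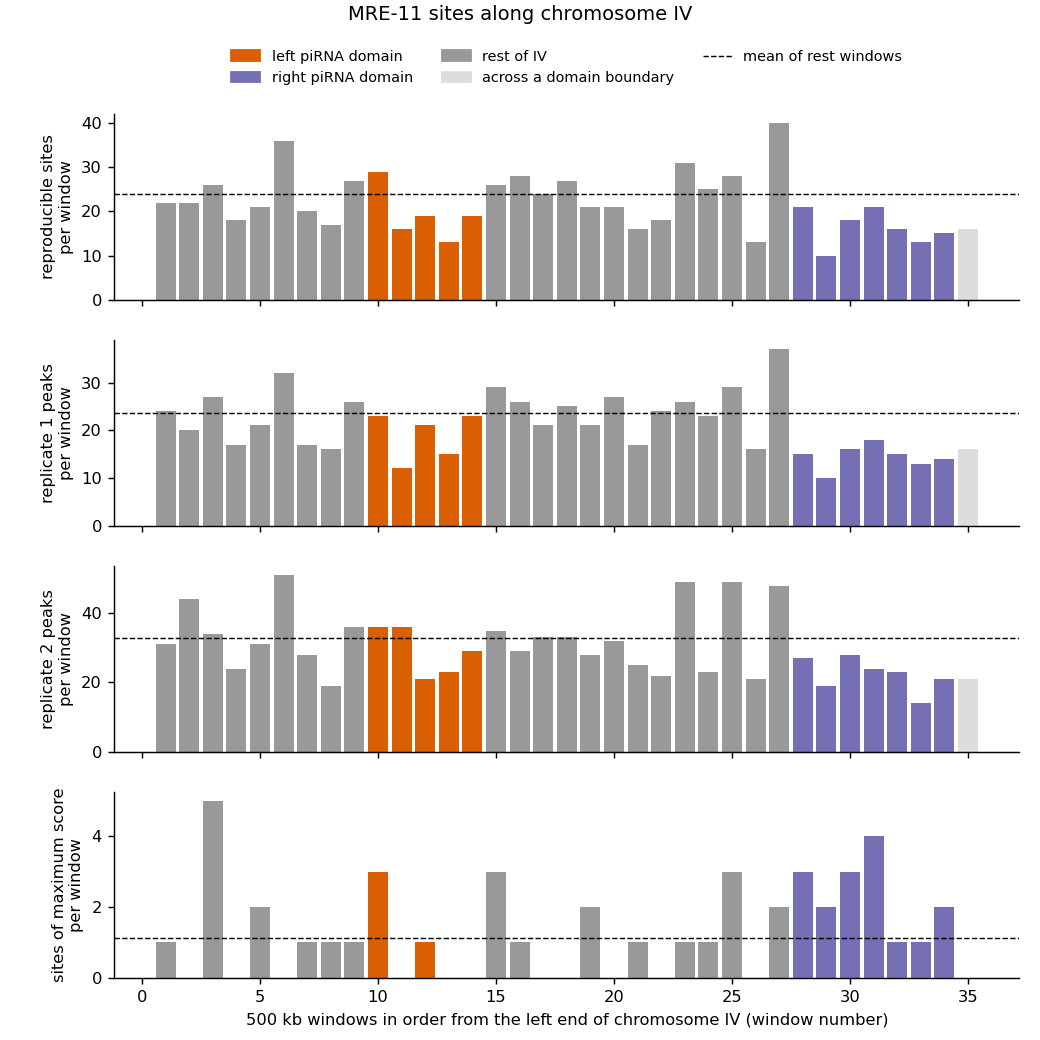
Reproducible sites, replicate 1 peaks, replicate 2 peaks and sites of maximum score (y axes, counts per window) in 500 kb windows in order along chromosome IV (x axis, window number), coloured by stretch, with the mean of the windows in the rest of IV as a dashed line. The 7 windows of the right domain held 10 to 21 reproducible sites and each of them held at least 1 site of maximum score.

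The edges of the domains mattered to these values. With each domain lengthened by 250 kb at both ends the right domain had 0.85 times the density of the rest (0.71 to 1.02) and the left 0.92 times (0.75 to 1.12), so that neither interval excluded equal density. The densest 100 kb window of IV, IV 13300001 to 13400000 with 19 sites, counts to the stretch between the domains by the original limits and to the lengthened right domain. With the domains shortened by 250 kb at both ends the ratios were 0.71 (0.57 to 0.87) for the right domain and 0.71 (0.54 to 0.91) for the left. Scores did not step in 1 direction at the edges. The last site before the left domain, IV 4476903 to 4477896, had a score of 30.33, and the first inside, IV 4511426 to 4512038, a score of 53.98. At the other edge, the last site inside was IV 6976755 to 6977804 with a score of 107.29 and the first outside IV 7016455 to 7017072 with 38.82. Just outside the right domain lay a site of maximum score, IV 13463680 to 13465156, and just inside it IV 13502848 to 13504259 with a score of 36.98. At its far edge the last site inside was IV 17147823 to 17149038 with a score of 141.72 and the first outside IV 17245126 to 17245517 with 43.59.

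The rule of overlap took in sites with as little as 1 base in common with a replicate peak, but 729 of the 753 sites were covered over at least 50% of their length by peaks of both replicates and 436 over their whole length.

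Of its own sites, the right domain had a larger share at the maximum score than the rest of IV. The score is the value that the authors' peak caller gave each peak, with a scale not stated in the files, and many peaks share the list's maximum of 163.35. At this maximum were 16 of the 123 sites of the right domain (13.0%, 95% Wilson interval 8.17% to 20.1%), 4 of the 96 of the left domain (4.17%, 1.63% to 10.2%) and 25 of the 534 of the rest of IV (4.68%, 3.19% to 6.82%), against 4.15% of all reproducible sites. The share of the right domain was 8.33 percentage points above that of the rest of IV (95% Newcombe interval 3.04 to 15.6). Right and left domain differed by 8.84 points (1.08 to 16.4), while the left domain and the rest differed by -0.51 points (-3.83 to 5.73). Without the right domain, 29 of 630 sites on IV (4.60%, 3.22% to 6.53%) had the maximum score, and on the other chromosomes 127 of 3394 (3.74%, 3.15% to 4.43%). The right domain thus held 2.97% of the reproducible sites of the genome and 9.30% of those at maximum score.

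Counted per length, the right domain had 4.32 sites of maximum score per Mb (2.47 to 7.02), the left domain 1.60 (0.44 to 4.10) and the rest 2.21 (1.43 to 3.27). The ratio of right domain to rest was 1.95, with an interval (0.97 to 3.81) that included equal density. In the replicate lists the corresponding class was taken as scores of 3100 or more, since 280 peaks of replicate 1 and 300 of replicate 2 stood at exactly 3100 and only 24 and 27 above it. That ceiling was reached by 25 of 109 replicate 1 peaks in the right domain (22.9%, 16.0% to 31.7%) and 43 of 529 in the rest (8.13%, 6.09% to 10.8%). In replicate 2 it was reached by 28 of 168 (16.7%, 11.8% to 23.0%) and 49 of 734 (6.68%, 5.09% to 8.72%). Per Mb the right domain had 1.77 times (1.04 to 2.97) as many ceiling peaks as the rest in replicate 1 and 1.74 times (1.06 to 2.83) in replicate 2. The left domain had 4 of 94 (4.26%) in replicate 1 and 9 of 145 (6.21%) in replicate 2, within the intervals of the rest or below them.

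**Figure D2:**
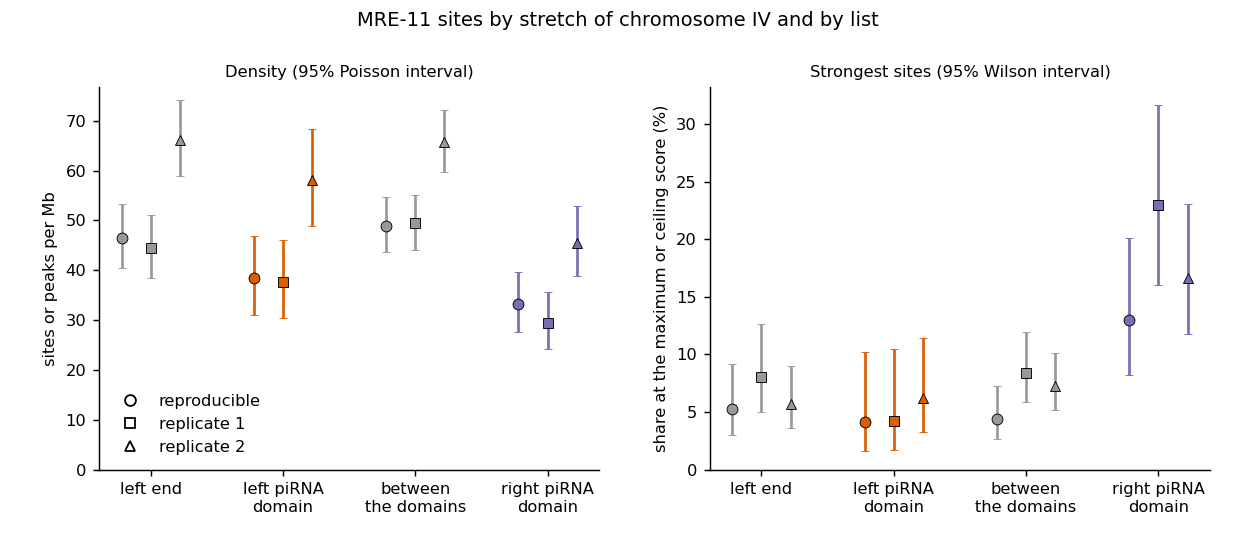
Left, sites or peaks per Mb with 95% Poisson intervals, and right, the percentage at the maximum score (reproducible sites) or at the ceiling of 3100 (replicate lists) with 95% Wilson intervals, for 4 stretches of IV and 3 lists (circles reproducible, squares replicate 1, triangles replicate 2). In all 3 lists the right domain had the lowest density of these 4 stretches and the highest share of top-scoring peaks, 13.0%, 22.9% and 16.7%.

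Many sites stood at the ceiling in both replicates at once. This was so for 26 of the 123 sites in the right domain (21.1%, 14.9% to 29.2%), 6 of 96 in the left domain (6.25%, 2.90% to 13.0%) and 39 of 534 in the rest of IV (7.30%, 5.39% to 9.83%), against 6.03% of all reproducible sites. Each site was given the score of the replicate peak with which it had most bases in common. Neighbouring sites inside the same wide replicate peak thus shared a score but were counted separately, which the intervals do not allow for. All of these lists derive from the same 2 ChIP libraries, so the whole-series list and the replicates are not independent of each other. Of the 16 sites of maximum score in the right domain 12 were at the ceiling in both replicates, as were 4 of 4 in the left domain and 11 of 25 in the rest.

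The sites of maximum score in the right domain were not 1 cluster, but they were more frequent in its left part. Every one of its 7 windows of 500 kb held 1 to 4 of them, while 14 of the 22 windows in the rest of IV held any. From left to right these 7 windows held 3, 2, 3, 4, 1, 1 and 2. The last window of IV, which crosses the domain's right edge, held 0. Median widths of all reproducible sites in the 7 windows were 870, 1400, 804.5, 805, 541, 670 and 447 bp. The median gap between neighbouring sites of maximum score in the right domain was 152374 bp, the shortest 25842 bp and the longest 726293 bp. In the rest of IV the median was 332731 bp, with gaps of 11966 to 1268897 bp. The 4 in the left domain were fewer places than their number says: 3 of them lay side by side at IV 4920602 to 4923047, IV 4923581 to 4925315 and IV 4925865 to 4927619, separated by 533 and 549 bp. In replicate 1 all 3 fell in a single peak 7606 bp wide, IV 4920309 to 4927914, and in replicate 2 they were 3 peaks of 2575, 1868 and 1979 bp. The other was IV 5946428 to 5948155, 1728 bp wide, with replicate widths of 3148 and 1918 bp. When neighbours within 2000 bp were merged, 3.33% of the left domain's sites, 18.6% of the right domain's and 6.83% of the rest had the maximum score.

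Among the right domain's sites of maximum score, the widest was IV 14475952 to 14481139, 5188 bp in the whole-series list and 5785 and 5125 bp in replicates 1 and 2. It was followed by IV 15373824 to 15377060 (3237 bp, against 3870 and 3342 bp). The next, IV 13880212 to 13883091, was 2880 bp wide and differed most between the replicates, at 5555 and 1935 bp. The widths of IV 16880276 to 16882776 (2501 bp) were 3031 and 2662 bp in the replicates. Those of IV 14824097 to 14826302 (2206 bp) were 3183 and 2268 bp. All 5 had a score of 3100 in both replicates. In the rest of IV the widest sites of maximum score were IV 11820527 to 11823042 (2516 bp), IV 9410183 to 9412319 (2137 bp) and IV 11109665 to 11111800 (2136 bp), the last with scores of 3063.21 in replicate 1 and 2770.51 in replicate 2. The fifth site of the left domain by score was IV 6323207 to 6324776, with 162.77, just under the maximum, and with 2854.67 in replicate 1 and 2687.93 in replicate 2.

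A wide site need not have a high score. In the right domain the second widest, IV 13929217 to 13933247 (4031 bp), had a whole-series score of 32.19, which ranked at the 34.6th percentile of all reproducible sites. Its replicate scores were at or near the ceiling, 3100 in replicate 1 and 2820.59 in replicate 2. The third widest, IV 15078447 to 15082266 (3820 bp, score 98.25), was at 3100 in both replicates. In the left domain the widest after the first were IV 4748225 to 4750359 (2135 bp, score 143.76) and IV 6554643 to 6556469 (1827 bp, score 72.96). The whole-series score and the replicate scores thus ranked some wide sites very differently.

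Under the top of the score range the right domain was below the rest in density. Reproducible sites of all chromosomes were split into 4 classes of nearly equal size at scores of 24.88, 49.20 and 101.51. In the lower 2 classes together the right domain had 15.1 sites per Mb against 24.1 in the rest, a ratio of 0.63 (0.46 to 0.84). Taken singly, the lowest class had a ratio of 0.67 (0.43 to 1.02), which included equal density, and the second 0.59 (0.38 to 0.89). In the third class it had 5.95 against 10.2, a ratio of 0.58 (0.35 to 0.93). In the highest class the densities were 12.2 and 13.0 per Mb (ratio 0.93, 0.65 to 1.31). Within that class the sites under the maximum were at 0.73 times the rest (0.47 to 1.10) and those at the maximum at 1.95 times. As a share of its own sites, the right domain had 36.6% in the highest class and the rest of IV 27.5%. The intervals of the classes overlapped one another, so that a difference between classes is a description.

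In the left domain the deficit was found in the second class, with 13 sites and 5.20 per Mb against 12.8 in the rest (ratio 0.41, 0.21 to 0.71). In its other classes, from the lowest to the highest, the ratios were 1.07 (0.69 to 1.60), 0.98 (0.61 to 1.52) and 0.86 (0.55 to 1.30), each with an interval that included equal density.

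**Figure D3:**
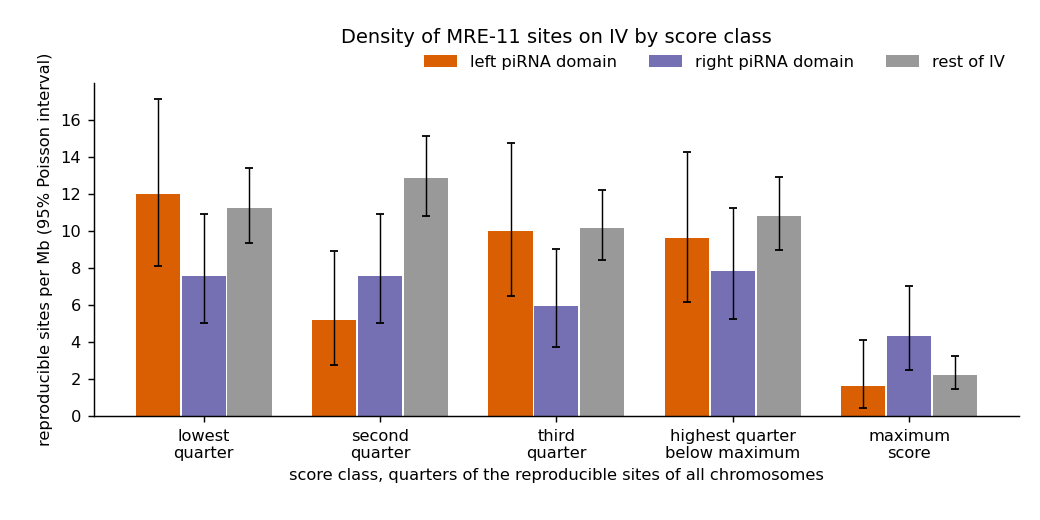
Reproducible sites per Mb (y axis, bars from 0, 95% Poisson intervals) in the left domain, the right domain and the rest of IV, by score class (x axis). The right domain was below the rest in the classes under the maximum, with 5.95 against 10.2 per Mb in the third, and above it at the maximum, with 4.32 against 2.21.

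By rank the scores of the right domain were somewhat higher. The median site of the right domain stood at the 56.8th percentile of all reproducible sites, that of the left domain at the 52.0th and that of the rest at the 49.2nd. In replicate 1 the median peak of the right domain was at the 65.7th percentile of its list, against 52.2 in the rest of IV, and in replicate 2 at the 54.8th against 48.7. The parts of the rest were at 50.8 between the domains and 55.2 in the left end in replicate 1. In replicate 2 they were at 54.2 and 42.1, so there the right domain was close to the stretch between the domains. Among every whole-series peak the order turned, with 50.4 in the right domain and 51.3 in the rest. The left domain's median was within 1 percentile point of the rest in both replicates (51.4 against 52.2 in replicate 1, and 48.7 in both in replicate 2).

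Median widths differed by less than their quartiles. The median site of the right domain was 752 bp wide (quartiles 454.5 and 1237 bp), that of the left domain 636 bp (420.5 and 893.5 bp) and that of the rest 640.5 bp (446 and 1015 bp). In replicate 1 the median peak was 1548 bp wide in the right domain, 1230.5 bp in the left and 1318 bp in the rest. In replicate 2 these medians were 710.5, 688 and 665 bp, so that the right domain had the widest median in every list and the left domain no fixed place. The margin was small in replicate 2, where the median was 693 bp between the domains and 619.5 bp in the left end. The quartiles of both domains and the rest overlapped in all 3 lists. The difference stood in the upper part of the distribution: 26 of 123 sites in the right domain were 1500 bp or wider (21.1%, 14.9% to 29.2%), 9 of 96 in the left domain (9.38%, 5.01% to 16.9%) and 67 of 534 in the rest (12.5%, 10.00% to 15.6%), against 11% of all reproducible sites. Of those 26, 10 were also at the maximum score. Counted per length, sites of 1500 bp or more numbered 7.03 per Mb in the right domain, 3.60 in the left and 5.93 in the rest. Between the domains the value was 6.62 per Mb. The right domain and the rest thus differed less per length than by share. Inside the highest score class the median width was 1593 bp in the right domain, 1061 bp in the left and 1235 bp in the rest.

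The median gaps of the domains lay on either side of that of the rest. The median gap between neighbouring sites was 10814.5 bp in the right domain (quartiles 1471 and 38112 bp), 5812 bp in the left domain (632.5 and 27922 bp) and 9348 bp in the rest (1089.5 and 28285.5 bp). The left domain, although sparser than the rest, thus had a shorter median gap than the rest as a whole. The parts of the rest differed, with a median gap of 5544 bp in the left end and 10492 bp between the domains. A short median gap was therefore not particular to the left domain. Of the left domain's gaps 37.9% were 2000 bp or less, against 30.3% in the right domain, 31.6% in the rest and 34.1% in the left end. In replicate 2 the left domain's median gap was 3030 bp, against 6099 bp in the rest and 4764 bp in the left end. In replicate 1 it was 12767 bp against 10700 bp in the rest. After neighbours within 2000 bp were merged it was 21423 bp against 19422 bp. The right domain's median gap was above that of the rest in both replicates, 14372.5 against 10700 bp and 7526 against 6099 bp. Set against the stretch between the domains alone it was close among the reproducible sites (10814.5 against 10492 bp) and in replicate 2 (7526 against 7302.5 bp). In replicate 1 that stretch had a median gap of 11732.5 bp.

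**Figure D4:**
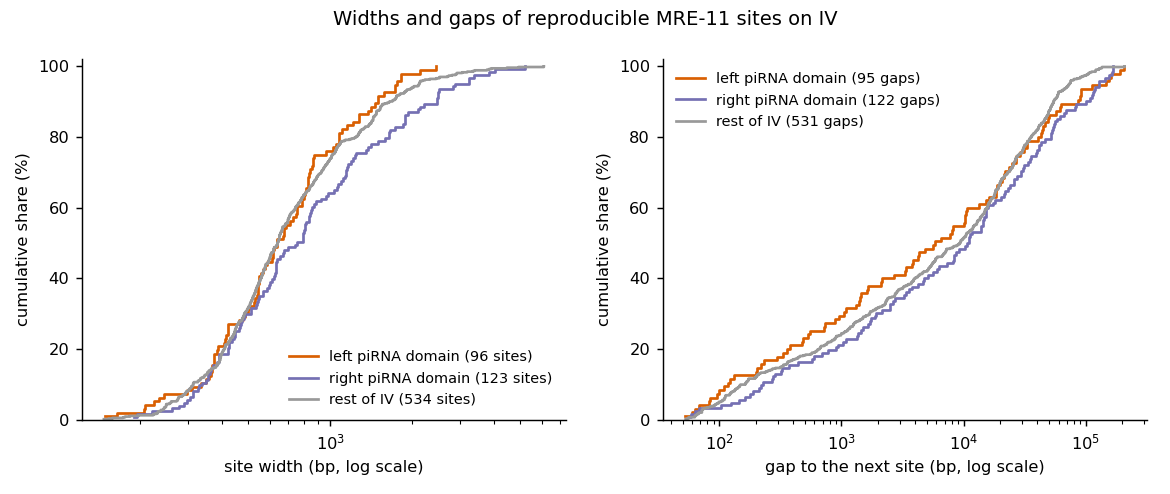
Cumulative share of sites (y axes, %) by width (left) and of gaps between neighbouring sites (right), both on log axes in bp, for the left domain, the right domain and the rest of IV. The right domain's curve of widths lies to the right in its upper part (21.1% of sites of 1500 bp or more), and the left domain's curve of gaps lies to the left at short gaps (37.9% of 2000 bp or less).

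When sites no more than 5000 bp apart were counted as 1 group, the domains were equal, with 50 groups in the left domain and 74 in the right, 20.0 per Mb in each, and 27.5 per Mb in the rest of IV. Single sites made up 56.0% of the groups in the left domain, 60.8% in the right and 61.4% in the rest. The largest group of the left domain had 6 sites, IV 4650558 to 4661345, and so had that of the right domain, IV 13777253 to 13789225, which held 1 site of maximum score. Elsewhere on IV the largest had 10, at IV 2599079 to 2620544 in the left end, none of them at the maximum.

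In windows of 100 kb the left domain was the most uneven stretch. Its counts had a variance 2.92 times their mean, against 1.49 in the right domain, 2.26 in the left end and 1.87 between the domains. Its densest window, IV 4700001 to 4800000, held 15 sites, and 3 of its 25 windows held 0. The right domain's densest window, IV 15000001 to 15100000, held 10, and 2 of its 37 windows held 0. The longest stretch without a reproducible site was IV 6118593 to 6323206 in the left domain (204614 bp) and IV 16676317 to 16845257 in the right (168941 bp). The first contained 10 whole-series peaks that were not in both replicates, the second 1. A gap of similar length, 208526 bp, lay in the left end at IV 3815565 to 4024090.

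Most replicate 1 peaks of the right domain were found again in replicate 2. Of the replicate 1 peaks there, 101 of 109 (92.7%, 86.2% to 96.2%) were overlapped by replicate 2, against 434 of 529 in the rest of IV (82.0%, 78.5% to 85.1%) and 74 of 94 in the left domain (78.7%, 69.4% to 85.8%). In the other direction the shares were 70.8% (63.6% to 77.2%), 68.0% (64.5% to 71.3%) and 61.4% (53.3% to 68.9%), with overlapping intervals. Scores of the same sites in the 2 replicates had a Spearman rho of 0.77 over the 123 sites of the right domain, 0.49 over the 96 of the left and 0.55 over the 534 of the rest. These are correlations across sites that share both libraries. Neighbouring sites inside the same replicate peak enter with the same score, and sites at the ceiling are mostly tied. The rho values are therefore given as descriptions.

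Of the 295 whole-series peaks in the right domain 41.7% (36.2% to 47.4%) were in both replicates, as were 37.9% (32.2% to 44.1%) of the 253 in the left domain and 37.7% (35.2% to 40.2%) of the 1418 in the rest. Peaks found in replicate 1 only were 8.81% in the right domain (6.09% to 12.6%), 12.6% in the left and 14.4% in the rest (12.7% to 16.3%). Those found in replicate 2 only were 16.6%, 22.1% and 17.6%. Peaks in neither replicate were 32.9% (27.8% to 38.4%), 27.3% (22.2% to 33.1%) and 30.3% (28.0% to 32.8%). Read depth is not given in the lists, and its part in these shares was not tested.

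The domains occupy particular places along IV, the right one most of the right arm, so the same fractions of the other 5 chromosomes were measured. A lower density at the place of the right domain was found on I and V as well, at 0.63 (0.51 to 0.77) and 0.73 (0.58 to 0.91) times the rest of each chromosome, close to the 0.70 of IV. On II, III and X the ratios were 1.11 (0.92 to 1.35), 0.89 (0.74 to 1.06) and 1.17 (0.94 to 1.45). At the place of the left domain, IV (0.81) and X (0.76, 0.56 to 1.02) were lowest and V highest (1.23, 0.98 to 1.52), with I, II and III between 0.95 and 1.05. Position along the chromosome and piRNA genes cannot be told apart for the density of the right domain on IV.

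The share of sites at the maximum score at the place of the right domain was highest on IV. It was 13.0% (8.17% to 20.1%) in the right domain, and on the others it ran from 3.05% on III (1.31% to 6.94%) to 6.21% on II (3.30% to 11.4%), where the intervals of I, II, V and X overlapped that of IV and that of III did not. In replicate 1 the ceiling was reached by 22.9% of peaks in the right domain and by 3.07% to 10.6% at its place on the others, the highest on X (6.55% to 16.8%). In replicate 2 it was 16.7% and 2.74% to 9.09%, the highest again on X (5.39% to 14.9%). At the place of the left domain, IV had 4.17%, within the range of 0.84% on I to 6.36% on V. Input was not analysed here, and the part that copy number, mappability or other features of the sequence have in the scores was not tested.

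**Figure D5:**
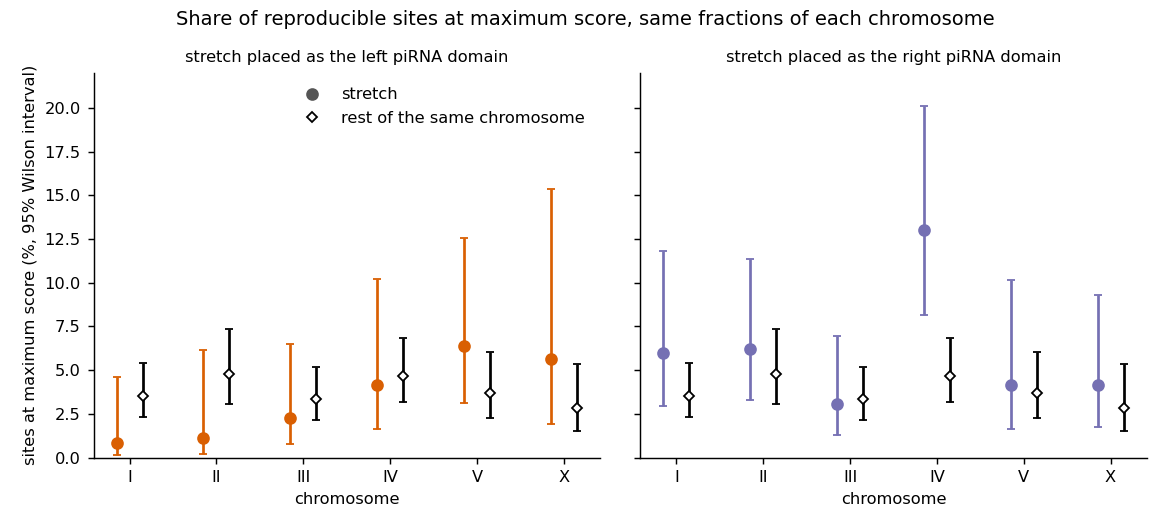
Percentage of reproducible sites at the maximum score (y axis, 95% Wilson intervals) on each chromosome (x axis), in the stretch that takes the same fraction of its length as the left domain (left panel) or the right domain (right panel) takes of IV, with the rest of the same chromosome as open diamonds. The right domain of IV stands at 13.0%, and the same place on the other chromosomes at 3.05% to 6.21%.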

How the data were processed

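Peaks came from 3 deposited lists, 1 for each ChIP replicate (4212 and 5799 peaks) and 1 for the whole series. The submitters' processing notes name BWA and the build ce10. Peaks were called with MACS for the replicates and MACS v2 for the whole series, and positions are in WormBase WS220, per the file headers and source columns. The sources used here do not give control, thresholds, versions or pooling. The deposited score of each peak is the authors' and its scale is not stated, so it was used only to rank and to class peaks within a list. Depth per library is unknown.

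Sites were reproducible if a peak of both replicates overlapped them by 1 bp, and were assigned by centre. IV was taken to end at 17493816, the last base under a peak. Gaps are the bases between neighbours in the same stretch. Intervals (95%) are exact Poisson for densities, exact conditional for ratios of densities, Wilson for shares and Newcombe for differences of shares, and cover counting error only. No p-values were computed, since peaks and windows of 1 chromosome are not replicates and no label says that the replicates were separate cultures. The functions were tested on simulated lists. Named sites were the 5 of highest score (ties by width) and 3 widest in each domain, the 3 of highest score in the rest, and the longest gap and densest 100 kb window. Other positions (domain edges, other top sites, largest groups) were chosen after their values were seen. So were the score classes, 500 kb windows, groups, the ceiling of 3100 and the comparison with other chromosomes. The domains and measures were chosen with earlier results of these data known. No sequence is shown, for lack of a WS220 genome. Python 3.11.15, numpy 2.4.6, pandas 2.3.3, scipy 1.17.1 and matplotlib 3.10.9 were used.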

Additional observations from a re-analysis of the deposited data

How the results depend on the processing

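All values are a domain minus the rest of IV, in sites per Mb, bp, percentile points or percentage points, and "the same" means a move smaller than the SD between both replicate lists. Under all 9 alternatives density stayed below the rest in both domains, and the right domain's width and share at the maximum above it. The interval of the density ratio included equal density in several of them for the left domain and in some for the right. The left domain's gap, width, score percentile and share at the maximum changed sign under 2, 4, 4 and 2 of the 9, and the right domain's gap and percentile under 1 each. Causes were not tested.

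Leaving out 1 replicate meant taking the other replicate's own peak list, with shares counted at the ceiling of 3100. The reproducible sites were not derived again, and the SD comes from these same lists. They gave densities of -9.24 to -6.99 (left) and -19.6 to -17.4 (right), and gaps of -3069 to 2067 and 1427 to 3672.5. Widths were -87.5 to 23 and 45.5 to 230, percentiles -0.81 to 0.017 and 6.09 to 13.5, and shares -3.87 to -0.47 and 9.99 to 14.8. With every whole-series peak the densities were -24.4 (left) and -45.8 (right), the left width 18, the percentiles -2.73 and -0.89, and the right share 3.66. In the higher-scoring 50% of sites the densities were -2.00 and -5.09, the widths -94 and 272, the percentiles -5.55 and 16.1, and the right share 14.3. There the density ratios were 0.91 (0.67 to 1.23) for the left domain and 0.78 (0.59 to 1.02) for the right. An overlap of 50% moved the left percentile to 4.09. Merging neighbours within 2000 bp gave a right density of -9.16, gaps of 2001 and 3700, widths of 8 and 447.5, a left percentile of 2.29 and shares of -3.50 and 11.8. Domains shortened by 250 kb gave a left density of -13.8, width of 34.5, percentile of 1.35 and share of 1.29. Lengthened domains gave densities of -3.60 and -6.70, a right gap of -2209.5, percentiles of -3.83 and 0.65 and a left share of 0.29. Against the stretch between the domains, densities were -10.5 and -15.7 and the left percentile 4.71.

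No paired analysis was possible because only ChIP replicates have peak lists, and the inputs numbered like them were not analysed here. Read depth is unknown, so a site in 1 list alone cannot be read as absent from the other library.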
